A study of Mus musculus with 4 samples.

Results

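Mme, Ly6c1, Glod5, Myom2, Mylpf, Zfp773 and Prps1 are 7 of the 21411 genes tested on 4 two-colour Agilent arrays of mouse embryonic stem cell RNA. They were taken for a small unadjusted p between cells treated with doxycycline plus TCP and cells treated with doxycycline alone, all 7 on the higher side. That difference therefore chose them, and it is given below as a description with no test. The arrays held 11 probes of these genes, 2 each for Mme, Ly6c1, Zfp773 and Prps1 and 1 each for the other genes, and all 11 were well above background in both channels on all 4 arrays. Ly6c1, Glod5 and Zfp773 appear in the files under the older names Ly6c, 2010001H14Rik and 2810409K11Rik.

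The cells were ZHBTc4, mouse embryonic stem cells that lose their Oct4 (Pou5f1) when doxycycline is added; Oct4 is a factor needed for the undifferentiated state. The group dox+TCP had 48 h of doxycycline (2 µg) with TCP, whose dose the labels do not give, the group dox had 48 h of the same doxycycline alone, and each group had 2 biological replicates per the labels. Both groups were labelled with Cy5, and the reference, labelled with Cy3 on every array, was ZHBTc4 RNA for which the labels name no treatment. All cells had been grown on irradiated embryonic fibroblasts and then passaged 2 times on gelatin. TCP is not spelt out in the labels; the abbreviation is commonly used for tranylcypromine, an inhibitor of the monoamine oxidases and of LSD1 (Kdm1a), the histone demethylase named in the study's title. All groups come from 1 line, the dyes were not swapped, and no array held untreated cells in Cy5, so a dye effect and a treatment effect shared by both groups cannot be told apart.

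Mme is neprilysin, a zinc peptidase anchored in the plasma membrane with its active site outside the cell, where it cleaves small signalling peptides such as enkephalins, tachykinins and natriuretic peptides. Ly6c1 is a member of the Ly6 and uPAR family, small proteins with a cysteine-rich fold, of which many are held on the cell surface by a lipid anchor; it is best known as a marker of monocytes, some T cells and endothelial cells in the mouse. Glod5 carries a glyoxalase domain, Myom2 is a myomesin of the M-band of striated muscle, Mylpf is the regulatory myosin light chain of fast skeletal muscle, Zfp773 is a zinc finger protein, and Prps1 makes phosphoribosyl pyrophosphate, the sugar phosphate from which nucleotides are built. Mme and Ly6c1 are also found on fibroblasts, the cell type of the feeders.

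Upstream sequence was taken from RefSeq on build GRCm38.p6, to show the starting regions of genes that were chosen together here. The window was the 250 bases before a listed start site. Its bases outside the gene's span were shown where they numbered at least 100. Of the 7 genes, 5 matched the set of RefSeq start sites, and Glod5 and Myom2 did not. The window of Mylpf lies inside the gene's span and is not shown. Ly6c2, the near copy of Ly6c1 on chromosome 15, is shown beside it because the array held no probe under its name. The start sites used for Ly6c1 and Ly6c2 lie inside the gene's span, so these stretches are shorter and stop before that site. Mme has 3 listed start sites and Ly6c1 and Ly6c2 have 2 each, of which 1 is shown. The stretches are Mme at chr3:63294961-63295210 (plus strand), Ly6c1 at chr15:75048921-75049087 (minus strand), Ly6c2 at chr15:75112067-75112221 (minus strand), Zfp773 at chr7:7136756-7137005 (minus strand) and Prps1 at chrX:140456353-140456602 (plus strand), each written 5′ to 3′ and ending where the gene's span begins. Capitals mark matches on either strand to the E-box CANNTG, the GC box GGGCGG, the TATA box TATAAA or the octamer ATGCAAAT, the last being a sequence bound by Oct4.
Mme: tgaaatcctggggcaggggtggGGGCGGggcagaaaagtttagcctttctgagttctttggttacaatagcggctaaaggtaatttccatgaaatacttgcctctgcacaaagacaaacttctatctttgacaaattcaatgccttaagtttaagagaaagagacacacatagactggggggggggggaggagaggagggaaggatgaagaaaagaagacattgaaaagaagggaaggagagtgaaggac
Ly6c1: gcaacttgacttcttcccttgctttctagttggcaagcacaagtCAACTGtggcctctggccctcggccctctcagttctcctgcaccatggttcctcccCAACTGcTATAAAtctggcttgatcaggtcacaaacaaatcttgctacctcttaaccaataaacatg
Ly6c2: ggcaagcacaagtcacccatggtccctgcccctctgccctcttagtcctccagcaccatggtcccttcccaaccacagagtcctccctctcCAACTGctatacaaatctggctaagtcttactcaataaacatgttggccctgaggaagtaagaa
Zfp773: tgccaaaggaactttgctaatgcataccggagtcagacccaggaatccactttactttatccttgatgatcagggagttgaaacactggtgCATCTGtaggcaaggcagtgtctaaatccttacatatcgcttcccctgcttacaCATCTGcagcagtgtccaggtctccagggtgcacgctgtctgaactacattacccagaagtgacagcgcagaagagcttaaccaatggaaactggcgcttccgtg
Prps1: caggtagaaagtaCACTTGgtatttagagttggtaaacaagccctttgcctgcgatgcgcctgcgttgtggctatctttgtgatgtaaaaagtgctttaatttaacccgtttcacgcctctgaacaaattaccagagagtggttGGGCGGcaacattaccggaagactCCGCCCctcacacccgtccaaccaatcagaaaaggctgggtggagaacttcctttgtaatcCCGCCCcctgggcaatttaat

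The Mme stretch held 1 GC box, a match found in 32.7% of the 32851 RefSeq windows of 250 bases, and neither an E-box nor a TATA box. The Ly6c1 stretch of 167 bases held 2 E-boxes and 1 TATA box, where 53.0% and 7.96% of windows cut to that length hold a match. The Ly6c2 stretch of 155 bases held 1 E-box. In its alignment with Ly6c1, 102 of the 130 aligned bases were identical, or 53.1% of the 192 columns with gaps counted. Zfp773 held 2 E-boxes, and Prps1 held 1 E-box and 3 GC boxes; an E-box is present in 66.2% of the 250-base windows. No stretch held the octamer, which 1.60% of the 250-base windows hold.

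The depletion that defines the line was seen on every array. The log2 ratio of Pou5f1 to the reference was -3.29 and -3.28 in dox+TCP cells and -3.38 and -3.62 in dox cells (limma adjusted p = 0.0146 and 0.0105 against the reference), and 10 of the 19 pluripotency genes tested were called lower and 2 higher in dox+TCP cells, and 15 lower and 0 higher in dox cells (0 also at an unadjusted p under 0.05). Among all genes, limma called 8.08% lower and 7.31% higher in dox+TCP cells, and 8.28% lower and 6.32% higher in dox cells. Kdm1a had ratios of 0.02 and 0.05 in dox+TCP cells and 0.16 and 0.33 in dox cells (adjusted p = 0.812 and 0.152). The ratios of the dox+TCP replicates correlated at r = 0.865 across genes and those of the dox replicates at r = 0.662; the arrays numbered 1 of both groups correlated at r = 0.878 and those numbered 2 at r = 0.815. Replicate 1 of both groups lay on 1 slide, whereas replicate 2 of dox and replicate 2 of dox+TCP lay on slides of their own, and only that of dox+TCP was scanned on another day. For each gene the fit takes 1 spread from all 4 arrays. A call in dox cells thus also depends on the dox+TCP arrays, while its mean ratio does not. Without replicate 1 or without replicate 2 of dox+TCP, limma called 0 genes in any comparison with the reference (3353 to 6112 at an unadjusted p under 0.05), so each call against the reference below rests on both of these arrays.

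Mme stood close to the reference in dox+TCP cells and well below it in dox cells. At the probe that represents it, at chr3:63485822-63485881 on build mm7, the log2 ratio to the reference was 0.35 and 0.34 in dox+TCP cells, against -1.44 and -1.38 in dox cells. Both dox+TCP arrays thus lay above the reference and both dox arrays below it, with replicates that differed by less than 0.1. The scanned Cy5 intensity of the spot was 1177 and 1315 in dox+TCP cells, against 385 and 381 in dox cells. The difference in ratio was 1.76 ± 0.11 on the log2 scale (SE, n = 2 arrays per group), or 3.38-fold, the largest difference and the smallest p of all genes on the higher side. In the scanner's own log ratios, turned to log2, Mme was at 0.39 and 0.36 in dox+TCP cells, against -1.64 and -1.49 in dox cells. Within slide 1 the difference was 1.80, and between the replicates numbered 2 it was 1.72.

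The mean log2 ratio of Mme over all 4 arrays, a mean that the choice of the genes did not use, was -0.53 ± 0.054 (SE, n = 4 arrays, limma adjusted p = 0.00973). This mean pools 2 groups that lay on opposite sides of the reference and describes neither. The adjusted p was between 0.0160 and 0.104 with 1 array left out, and the call was lost without either replicate of dox+TCP; it was lost with median centring (adjusted p = 0.146). For this gene and the others, the choice favoured a small spread between replicates, so these p-values tend to be smaller than those of genes chosen without regard to it. In bulk RNA, fewer cells that express a gene and less RNA per cell cannot be told apart.

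The second Mme probe, 40.761 kb away at chr3:63526643-63526702 (mm7), did not show the same values. Its log2 ratio was -0.67 and -1.04 in dox+TCP cells, against -0.94 and -1.60 in dox cells, so all 4 arrays lay below the reference and the groups overlapped. Its difference between the groups was 0.41, against 1.76 at the first probe. The 2 probes were nearly equal in brightness: without replicate 2 of dox+TCP the second is the brighter, and Mme would then be represented by a difference of 0.60 and by a ratio of -0.67 in dox+TCP cells. With both probes averaged the difference was 1.09, and the ratio in dox+TCP cells was -0.26. The files annotate both probes to the same transcript, NM_008604; exons on mm7 were not used here, so which part of the transcript each probe reads is not given.

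Ly6c1 had ratios like those of Mme. At the probe that represents it, at chr15:75125619-75125674 (mm7), the log2 ratio was 0.61 and 0.22 in dox+TCP cells, against -1.48 and -1.12 in dox cells. The dox+TCP arrays again lay above the reference and the dox arrays below it. The difference was 1.72 ± 0.22 (SE, n = 2 arrays per group), or 3.28-fold, the third largest of all genes on the higher side, with 2.09 within slide 1 and 1.34 between the replicates numbered 2. The scanner's own log ratios gave 0.64 and 0.20 in dox+TCP cells, against -1.63 and -0.997 in dox cells. Over all 4 arrays the mean was -0.44 ± 0.11 (SE), which did not pass the test (adjusted p = 0.0564, between 0.0429 and 0.244 with 1 array left out, the lowest being without replicate 2 of dox).

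The channels behind these ratios moved in different ways in the replicates. The normalized Cy5 level of Ly6c1 was 10.45 and 11.52 on the log2 scale in dox+TCP cells, against 8.21 and 10.70 in dox cells, so replicate 2 of dox lay above replicate 1 of dox+TCP. The Cy3 level of the reference was 9.84 and 11.30 on the dox+TCP arrays, against 9.69 and 11.82 on the dox arrays. The reference of the arrays numbered 2 was thus 1.79 higher than that of the arrays numbered 1, a value above that of 99.8% of genes, whose median was 0.07. The Ly6c1 groups thus did not overlap in the ratio and did overlap in Cy5. For Mme the groups overlapped in neither: its Cy5 levels were 9.65 and 10.19 in dox+TCP cells, against 7.90 and 8.23 in dox cells, with a reference of 9.30 and 9.85 on the dox+TCP arrays and 9.34 and 9.61 on the dox arrays. Of the 7 representing probes, 6 had both dox+TCP Cy5 levels above both dox levels, all but that of Ly6c1, beside 10.5% of all genes. Cy5 is part of the ratio whose difference chose these probes, so nothing is read from that count.

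**Figure D1:**
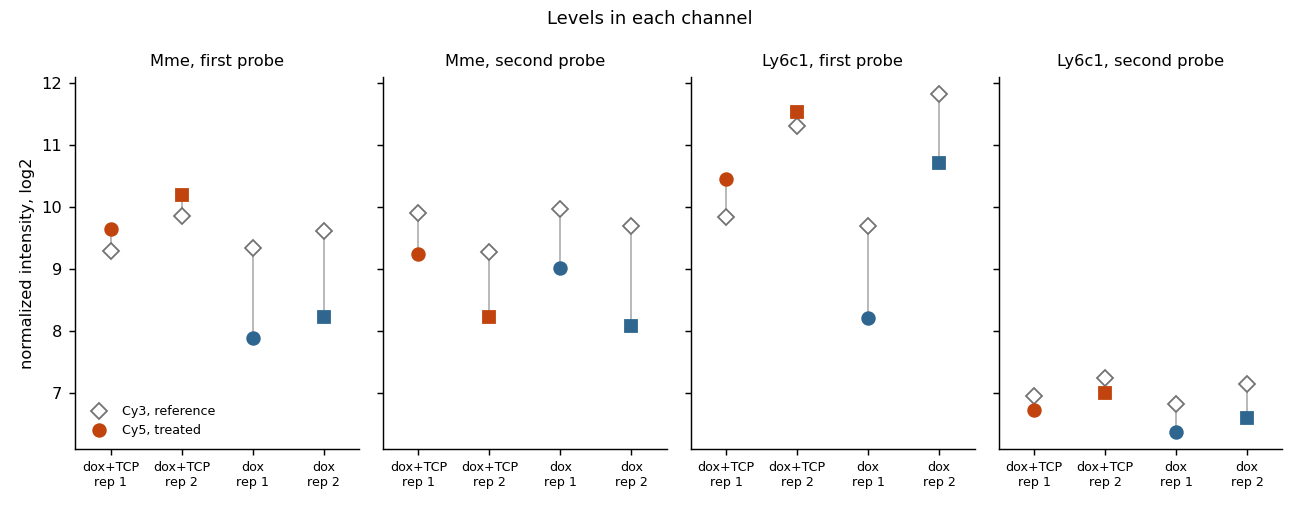
Normalized log2 intensity of the 2 Mme and 2 Ly6c1 probes on each array (x axis), with filled symbols for Cy5 (dox+TCP, then dox cells) and open diamonds for the Cy3 reference; the line between them is the log2 ratio. Levels are to be read within a panel, and the first Ly6c1 probe shows a reference that was 1.79 higher on the arrays numbered 2.

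The second Ly6c1 probe, 157 bases away at chr15:75125832-75125891 (mm7), had log2 ratios of -0.24 and -0.24 in dox+TCP cells, against -0.44 and -0.54 in dox cells. The groups did not overlap, but the difference was 0.25. The scanned Cy5 intensity was 115 and 167 in dox+TCP cells, against 101 and 113 in dox cells. The scanner's own log ratios gave -0.54 and -0.33 in dox+TCP cells, against -1.24 and -1.19 in dox cells. Their difference was 0.78, so its size at this dim probe depended on the processing. The files annotate this probe to NM_010741 and the first probe to D86232, described there as a Ly-6C variant. With both probes averaged the difference was 0.98. Whether these probes also read its near copy Ly6c2 was not tested.

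**Figure D2:**
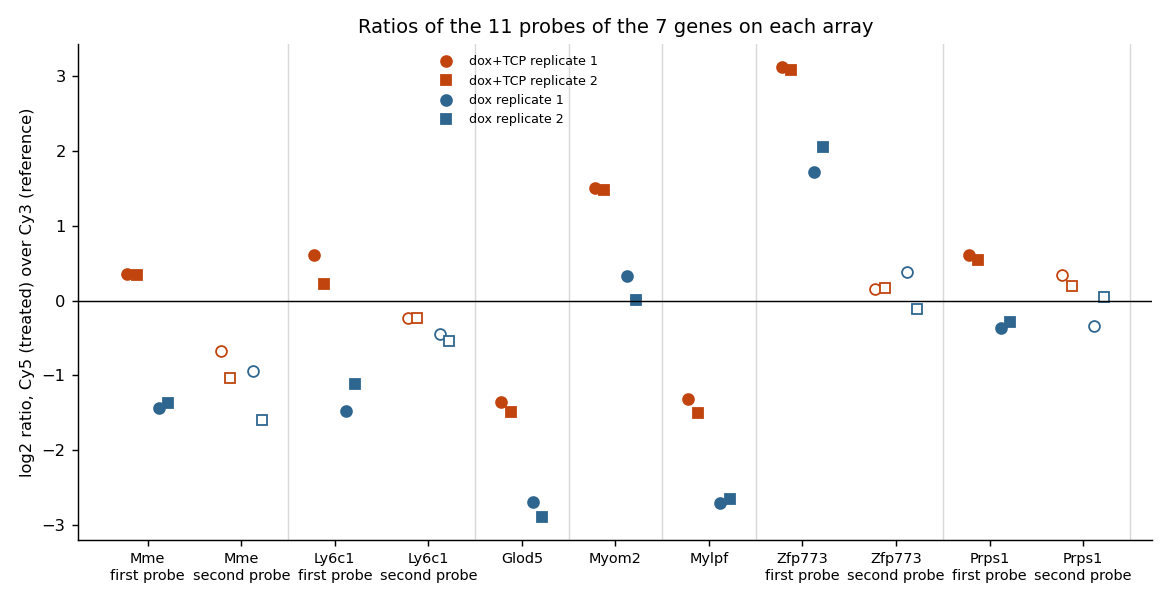
Log2 ratio of Cy5 over the Cy3 reference (y axis) for each of the 11 probes (x axis), with dox+TCP arrays left of dox arrays, circles for replicate 1 and squares for replicate 2; filled symbols are the probe that represents the gene. After loess, the dox+TCP arrays lie 0.91 to 1.76 above the dox arrays on average at the first probes. The second probes of Mme, Ly6c1, Zfp773 and Prps1 differ by 0.03 to 0.42. In the scanner's log ratios, not plotted, the second Ly6c1 probe differs by 0.78.

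Several relatives of Ly6c1 had the same order of the groups. Ly6a (Sca-1), another lipid-anchored member, had log2 ratios of 0.89 and 0.33 in dox+TCP cells, against -0.87 and -0.82 in dox cells, a difference of 1.45. Its reference was also higher on the arrays numbered 2, by 1.66, and its Cy5 levels overlapped, at 9.33 and 10.02 in dox+TCP cells and 7.49 and 9.62 in dox cells. Ly6g6e had 0.58 and 0.13 in dox+TCP cells, against -0.97 and -0.71 in dox cells, and its Cy5 levels did not overlap (10.82 and 10.90 in dox+TCP cells, against 9.30 and 10.53 in dox cells). Ly6e, a family member with broad expression, had -0.32 and -0.14 in dox+TCP cells, against -1.16 and -0.65 in dox cells. Its Cy5 levels overlapped, at 9.59 and 9.77 in dox+TCP cells and 8.73 and 9.98 in dox cells.

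Of the 26 Ly6 and uPAR genes tested, 6 were called lower than the reference in dox cells and none higher, beside 8.28% lower and 6.32% higher among all genes. These were Tex101, Ly6k, Ly6g6d, Ly6e, Ly6g6e and Ly6c1 itself, with adjusted p-values from 0.0245 to 0.0467. In dox+TCP cells limma called 0 of the 26 (4 at an unadjusted p under 0.05), beside 8.08% lower and 7.31% higher among all genes. These counts of calls do not compare the treatments with each other. The median difference of the family was 0.15, beside 0.04 for all genes. Both dox+TCP ratios lay above both dox ratios for 14 of the 26, beside 20.2% of all genes. They lay below both for 2 of the 26, beside 2747 of the 21411 genes. Ly6c1 is in these counts and was chosen for its difference. Whether the family differed between the treatments was not tested.

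**Figure D3:**
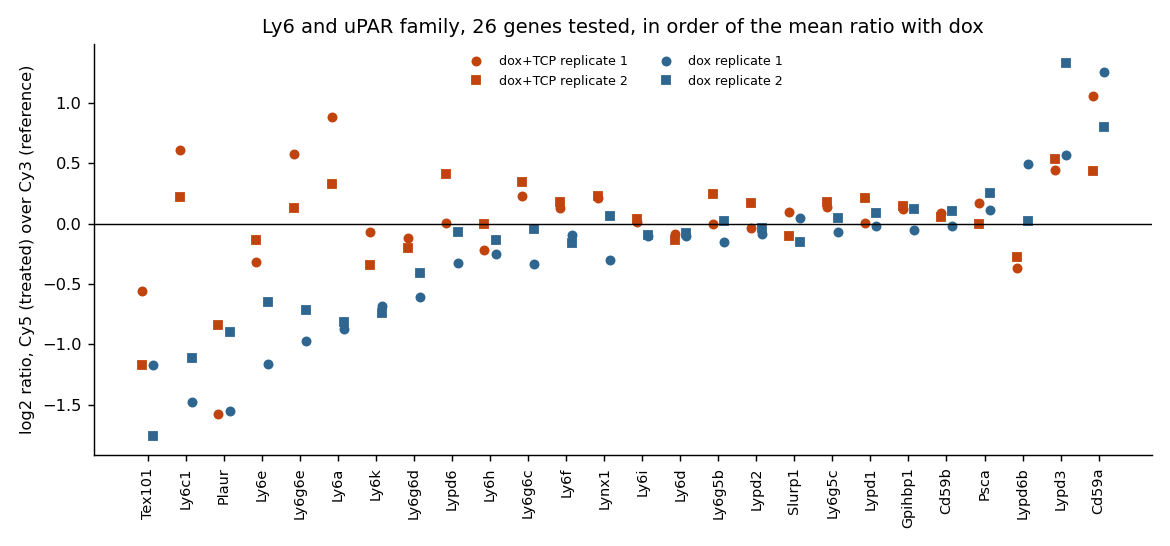
Log2 ratio to the reference (y axis) after loess of the 26 Ly6 and uPAR genes tested (x axis), ordered by their mean in dox cells, with dox+TCP arrays left of dox arrays. Ly6c1, Ly6a, Ly6g6e, Ly6f, Ly6g6c, Ly6i and Lypd6 lie above the reference on both dox+TCP arrays and below it on both dox arrays, the last 4 by at most 0.42.

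Among peptidases related to Mme or acting on like peptides, no other gene of the list had a difference over 1, a size that 0.42% of all genes reached. Mme was chosen for its difference, so nothing is read from its standing alone. Mmel1, a close relative of neprilysin, had log2 ratios of 0.97 and 1.22 in dox+TCP cells, against 0.36 and 0.72 in dox cells, and its mean over all 4 arrays rose by 0.82 over the reference (adjusted p = 0.0118). Dpp4, a serine peptidase of the cell surface that was listed with them, was called lower in both groups, with -2.07 and -1.70 in dox+TCP cells and -1.93 and -1.87 in dox cells. Cpe, a carboxypeptidase of secretory granules, had -0.85 and -0.87 in dox+TCP cells, against -1.57 and -1.46 in dox cells. Ece1, another relative of neprilysin, had 0.24 and 0.47 in dox+TCP cells, against -0.78 and 0.04 in dox cells. Its difference was 0.73. Of the 17 genes tested, 1 was called higher and 3 lower in dox+TCP cells (beside 7.31% and 8.08% of all genes), and 1 higher and 4 lower in dox cells (beside 6.32% and 8.28%). Mme is among the lower ones in dox cells; for it and the other 6 genes, a call in either group alone draws on the values and the small spread that chose them, and nothing is read from it. The median difference of the list was 0.08. Both dox+TCP ratios lay above both dox ratios for 5 of the 17, Mme included, and below both for 2. Over all 21411 genes those counts were 4319 and 2747.

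Among genes for substrates of neprilysin and their receptors, 16 were tested and the median difference was 0.02. Penk, the precursor of the enkephalins, had -0.95 and -1.63 in dox+TCP cells, against -1.88 and -2.19 in dox cells (adjusted p = 0.0361 and 0.0205 against the reference). App, the precursor of the amyloid peptide that neprilysin degrades, was called higher than the reference in both groups, with 1.75 and 1.59 in dox+TCP cells and 2.00 and 1.70 in dox cells. Of the 16, 2 were called higher and 1 lower in dox+TCP cells (beside 7.31% and 8.08% of all genes), and 1 higher and 2 lower in dox cells (beside 6.32% and 8.28%), counts near those shares.

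Glod5 and Mylpf lay below the reference in both groups, and less far below it in dox+TCP cells. Glod5, at chrX:6437367-6437426 (mm7), had log2 ratios of -1.36 and -1.49 in dox+TCP cells, against -2.70 and -2.90 in dox cells. The difference was 1.37 ± 0.14 (SE, n = 2 arrays per group), or 2.59-fold. Over all 4 arrays the ratio fell by 2.11 ± 0.069 (SE, adjusted p = 0.00415). This corresponds to 0.372 times the level of the reference in dox+TCP cells and 0.144 times in dox cells.

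Other glyoxalase genes stood on both sides of the reference. Glo1, which makes lactoylglutathione from methylglyoxal and glutathione, had -0.49 and -0.39 in dox+TCP cells, against -0.73 and -0.82 in dox cells, and Glod4, another gene with a glyoxalase domain, had 0.97 and 0.76 in dox+TCP cells, against 0.59 and 0.65 in dox cells. Both passed the test over all 4 arrays (adjusted p = 0.00896 and 0.00786). Of the 11 genes of glyoxalases and methylglyoxal detoxification tested, 3 were called higher and 4 lower in dox+TCP cells (beside 7.31% and 8.08% of all genes), and 1 higher and 4 lower in dox cells (beside 6.32% and 8.28%). Glod5 is among the lower ones of each by the values that chose it. The median difference was 0.31, beside 0.04 for all genes, and both dox+TCP ratios lay above both dox ratios for 6 of the 11, Glod5 included, beside 20.2% of all genes.

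Mylpf, at chr7:123309793-123310029 (mm7), had log2 ratios of -1.31 and -1.51 in dox+TCP cells, against -2.71 and -2.65 in dox cells, a difference of 1.27 ± 0.13 (SE) or 2.41-fold. It fell by 2.05 ± 0.065 over all 4 arrays (SE, adjusted p = 0.00404). Its reference level was 0.84 higher on the arrays numbered 2, more than for 98.2% of genes. Myom2, at chr8:15107433-15107492 (mm7), had 1.51 and 1.48 in dox+TCP cells, against 0.32 and 0.013 in dox cells, a difference of 1.32 ± 0.15 (SE) or 2.50-fold. It was thus above the reference on all 4 arrays, and it rose by 0.83 ± 0.077 over them (SE, adjusted p = 0.00841). The 2 muscle genes lay on opposite sides of the reference.

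Of 39 sarcomere genes tested, 6 were called higher and 3 lower in dox+TCP cells (beside 7.31% and 8.08% of all genes), and 4 higher and 7 lower in dox cells (beside 6.32% and 8.28%). Myh7 and Myh3, myosin heavy chains, were lower in both groups: Myh3 had -2.13 and -1.60 in dox+TCP cells and -2.36 and -2.17 in dox cells. Tnnt3 and Myl2 were higher in both: Tnnt3, the fast skeletal troponin T, had 1.82 and 1.47 in dox+TCP cells, against 1.23 and 1.01 in dox cells. Myom1, the relative of Myom2, had -0.14 and 0.0095 in dox+TCP cells, against -0.16 and -0.016 in dox cells. Myl1, the essential light chain of fast muscle, was well above background in Cy3 on 1 of the 4 arrays, so its ratio is not given. The median difference was 0.12 for the sarcomere genes and 0.05 for 13 muscle regulatory factors.

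Zfp773 had the highest ratios of the 7 genes. At its first probe, at chr7:6686038-6686097 (mm7), they were 3.13 and 3.09 in dox+TCP cells, against 1.73 and 2.05 in dox cells, a difference of 1.22 ± 0.16 (SE) or 2.34-fold. Over all 4 arrays the ratio rose by 2.50 ± 0.080 (SE, adjusted p = 0.00404, but 0.0921 with a spread that follows intensity). At the second probe, 4.599 kb away at chr7:6690697-6690756 and annotated to the same record, AK031040, the ratios were 0.16 and 0.16 in dox+TCP cells, against 0.38 and -0.11 in dox cells. The second probe thus showed neither the distance from the reference nor the difference between the groups, which was 0.03. Of the 9 neighbouring zinc finger genes tested, 2 were called higher and 1 lower in each group, beside 7.31% and 8.08% of all genes in dox+TCP cells and 6.32% and 8.28% in dox cells. Zfp954 was higher, with 0.62 and 0.87 in dox+TCP cells and 0.65 and 0.74 in dox cells, and Zfp78 was lower. The median difference of these neighbours was 0.03.

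With loess, Prps1 lay above the reference on both dox+TCP arrays and below it on both dox arrays, but with median centring the mean ratio of dox cells turned to 0.30, above the reference. Its first probe, at chrX:135195145-135195204 (mm7), had ratios of 0.61 and 0.54 in dox+TCP cells, against -0.37 and -0.29 in dox cells. The difference was 0.91 ± 0.11 (SE) or 1.88-fold, which ranked 155 by size among genes higher in dox+TCP cells. The second probe, 2.036 kb away at chrX:135193049-135193108, had 0.34 and 0.19 in dox+TCP cells, against -0.35 and 0.05 in dox cells, a difference of 0.42. The mean over all 4 arrays at the first probe was 0.12 ± 0.056 (SE) and did not pass the test (adjusted p = 0.199, but 0.00710 with median centring).

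Prps2, which encodes the second phosphoribosyl pyrophosphate synthetase, was below the reference on all 4 arrays, with -0.86 and -0.93 in dox+TCP cells and -1.14 and -1.16 in dox cells (adjusted p = 0.0182 and 0.0150). Prps1l1, the testis form, well above background in Cy3 on 3 of the 4 arrays, had 0.12 and 0.10 in dox+TCP cells and 0.076 and 0.079 in dox cells. Of 28 genes of phosphoribosyl pyrophosphate and nucleotide synthesis and of the pentose phosphate pathway, 4 were called higher and 6 lower in dox+TCP cells (beside 7.31% and 8.08% of all genes), and 1 higher and 4 lower in dox cells (beside 6.32% and 8.28%). Prps1 is among the higher ones in dox+TCP cells. Ppat, the first enzyme of purine synthesis to use it, had -0.93 and -1.20 in dox+TCP cells and -1.13 and -1.62 in dox cells. The median difference of the list was 0.10.

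The 7 genes share the order of the groups, which chose them, and differ in where they stood relative to the reference. Over all 4 arrays 3 were called lower than the reference, beside 16.2% of all genes: Glod5, Mylpf and Mme, whose groups lay on opposite sides of it. Called higher were 2 (Myom2 and Zfp773), beside 14.1%, and 30.4% of all genes were called in either direction. None of these 5 calls remained without replicate 1 or without replicate 2 of dox+TCP (adjusted p up to 0.104), or with local backgrounds used as read (0.202 to 0.642). Both dox ratios were below the reference for 5 genes and both dox+TCP ratios above it for 5. Of the 11 probes, 9 had both dox+TCP ratios above both dox ratios, beside 20.2% of all genes; 7 of the 9 are the probes whose difference chose the genes, so nothing is read from that count. In 3 of the 4 genes with 2 probes, the probes differed by more than 1 in the difference between the groups after loess. The same held for 1.67% of the 6899 genes with several tested probes, whose median range was 0.22. The genes were chosen on the value of 1 probe, so nothing is read from that share.

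Across all genes limma called 0 of 21411 between dox+TCP and dox cells, 0% of them (943 or 4.4% at an unadjusted p under 0.05, of which 585, or 2.73% of all genes, were higher in dox+TCP cells). At least 2-fold higher in dox+TCP cells were 90 genes, or 0.42%, among them 6 of the 7 genes here. By unadjusted p the 7 genes took the ranks 1 (Mme), 2 (Glod5), 3 (Mylpf), 5 (Myom2), 9 (Prps1), 12 (Ly6c1) and 13 (Zfp773) among genes on the higher side. Anxa8, Aopep and Gask1b stood between them, with differences of 1.04, 0.88 and 0.93, and Snai2, Socs2 and Morc1 came just after, with 0.86, 1.01 and 1.40.

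**Figure D4:**
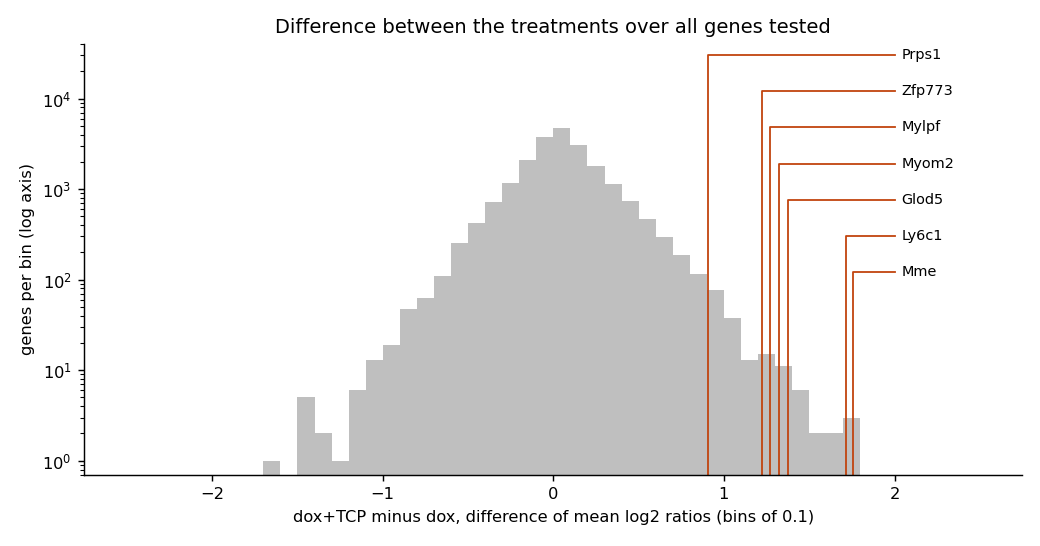
Number of genes (y axis, log scale) by the difference between dox+TCP and dox cells in mean log2 ratio (x axis, bins of 0.1) over the 21411 genes tested, with the 7 genes marked. Mme and Ly6c1 lie at the upper end, at 1.76 and 1.72, and Prps1 lies at 0.91.

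The genes whose 4 ratios lay nearest to those of Mme, by Euclidean distance over the 4 arrays, were Ly6c1 (0.39), Ddah1 (0.57) and Anxa8 (0.72). The nearest to Ly6c1 were Mme (0.39), Ddah1 (0.40) and Ly6g6e (0.65). Ddah1, which degrades methylated arginines that inhibit nitric oxide synthase, had log2 ratios of 0.35 and 0.23 in dox+TCP cells, against -1.53 and -0.82 in dox cells. Anxa8, a calcium-dependent membrane-binding annexin, had 0.027 and -0.091 in dox+TCP cells, against -1.07 and -1.07 in dox cells.

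Markers of other cell types were set beside these genes, since Mme and Ly6c1 are also found on fibroblasts, blood and endothelial cells. Of 24 fibroblast markers tested, 22 were well above background in Cy5 on all 4 arrays. The summed scanned Cy5 intensity of the 24 was 99167 and 89611 in dox+TCP cells, against 82411 and 87725 in dox cells. Over all genes tested that sum was 1.41e+08 and 1.19e+08 in dox+TCP cells, against 1.48e+08 and 1.49e+08 in dox cells. The arrays thus differed in brightness, and the sums are not scaled for it. The median log2 ratio of the fibroblast markers was -0.15 and 0.07 in dox+TCP cells, against -0.50 and 0.04 in dox cells. Of these markers, 1 was called higher and 2 lower in dox+TCP cells (beside 7.31% and 8.08% of all genes), and limma called 0 higher (2 at an unadjusted p under 0.05) and 4 lower in dox cells (beside 6.32% and 8.28%). Thy1, a surface marker of fibroblasts, had -1.15 and -1.08 in dox+TCP cells, against -2.13 and -1.66 in dox cells. Twist1, also called lower in both groups, had -1.46 and -1.48 in dox+TCP cells, against -1.72 and -1.18 in dox cells. S100a4 and Vim were called lower in dox cells and not in dox+TCP cells. S100a4 had -0.59 and -0.26 in dox+TCP cells, against -1.79 and -1.04 in dox cells. Vim had -0.53 and -0.46 in dox+TCP cells, against -1.77 and -0.88 in dox cells. The median difference of the list was 0.07, beside 0.04 for all genes. Both dox+TCP ratios lay above both dox ratios for 4 of the 24, beside 20.2% of all genes. In the reference the median of these markers was 0.38 lower on the arrays numbered 2, where Ly6c1 was 1.79 higher. Their part in the values of Mme and Ly6c1 was not tested.

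Of 16 blood cell markers, 14 were well above background in Cy5 on all 4 arrays, with a summed intensity of 4717 and 6193 in dox+TCP cells and 5315 and 5877 in dox cells. Of 12 endothelial markers, 11 were, with 14005 and 10846 in dox+TCP cells and 10347 and 13544 in dox cells. These sums, too, are not scaled for the brightness of the arrays. The median difference was 0.01 for the blood and 0.07 for the endothelial list; Cd34, a marker of both lineages, was called lower in both groups, and so was Pecam1, an endothelial adhesion molecule that embryonic stem cells also express. For the trophoblast list, 14 genes tested, the median difference was -0.40 and the median ratio was 1.67 and 0.20 in dox+TCP cells, against 2.25 and 0.22 in dox cells. In the reference the trophoblast markers were 1.46 higher on the arrays numbered 2, the arrays on which the reference level of Ly6c1 was higher too; their part in the values of Ly6c1 was not tested.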

How the data were processed

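RNA of 4 ZHBTc4 samples was hybridised against a ZHBTc4 reference on 2-colour Agilent arrays. The deposited spot signals and local backgrounds are intensities on a linear scale, made with Agilent Feature Extraction 10.1.1.1 per the file headers and the submitters' processing notes. Its LogRatio column, the log10 of Cy5 over Cy3 after the software's own background and dye correction per the file headers, matched the log10 values of the authors' deposited matrix within 0.005, with column medians of 0, 0.0111, 0 and 0. The dyes are those given in the labels.

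Mean signals were corrected with limma 3.58.1 (R 4.3.3) by normexp (offset 50), with local backgrounds over 2 times the median of their channel and array (11 to 112 spots) replaced by that median, then loess within arrays. The 1639 control spots of 45018 had weight 0 in the loess and were left out, and outlier spots were set to missing. Of 41174 probes, 31114 were kept for being well above background in Cy5 on both arrays of either group, or in Cy3 on all 4. The brightest kept probe stood for its gene, and Benjamini-Hochberg adjustment at 0.05 ran over all 21411 genes. Channel levels are after Aquantile scaling. The fit had 2 residual and 1.79 prior degrees of freedom, so the number of arrays limits the precision; the median SE of a difference was 0.161. The fit was also run on simulated data whose errors were independent between arrays. In the real data same-numbered arrays deviated together at r = 0.472, so no result is drawn from that run. Symbols came from RefSeq for 22944 probes by accession, 6664 by symbol and 3108 by synonym; 8458 kept the files' name.

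The 7 genes, the 13 gene lists and the limit on local backgrounds were chosen with earlier results of these data known. Genes named from a list are those called in a comparison with the reference, up to 4 by adjusted p, and relatives of the 7. Ly6g6d, Myl2, S100a4, Vim and Sall4 were named after their values were seen. The calls among muscle regulatory factors are not reported here. Alternatives were other background corrections, offsets, scalings, filters, probe rules and spreads, the replicate block, slide 1 alone and each array left out.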

Additional observations from a re-analysis of the deposited data

How the results depend on the processing

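The difference of Mme between dox+TCP and dox cells, 1.76, was 0.94 with backgrounds as read, 1.82 without background subtraction, 1.90 with an offset of 16, 1.94 with the scanner's log ratios and also with the series matrix values, 1.71 with median centring, 1.09 with the mean of both probes, 1.80 within slide 1, and 1.72 to 1.79 with 1 array left out. An alternative added after the values were seen chose the brightest probe again over the 3 arrays left: without replicate 2 of dox+TCP it took the other Mme probe, with a difference of 0.60 and a ratio of -0.67 in dox+TCP cells, the reverse of 0.35. With the mean of both probes that ratio was -0.26, also reversed. For Ly6c1 the difference, 1.72, was 1.01 with backgrounds as read, 0.98 with the mean of both probes, 2.09 within slide 1, and 1.52 to 1.91 with 1 array left out. The mean ratio of Prps1 in dox cells, -0.33, turned to 0.30 with median centring, under which the median of all genes was 0.18 in both groups, against 0.03 in dox+TCP and -0.00099 in dox cells with loess; less that median it was 0.12. Of the other values of the 7 genes under the alternatives listed in the methods, 398 kept their size or their side of the threshold, 52 lost and 10 gained a call with the same direction, and 11 moved by more than the replicate SD; 779 list medians moved by less than 0.1 and 85 by more. The cause of these changes was not tested.

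Genes called against the reference numbered 3296 in dox+TCP cells, 3126 in dox cells and 6499 over all arrays. With backgrounds as read, limma called 0 in each (1968, 1901 and 2926 at an unadjusted p under 0.05). With median centring the counts were 5107 and 6021 for dox+TCP and dox cells, of which 78.3% and 81.1% were higher, against 47.5% and 43.3% with loess. With the prior spread of all genes used for each gene they were 10399, 10300 and 11975, and 2596 between dox+TCP and dox cells, where the moderated spread gave 0. With 1 array left out they ranged from 0 to 5930, from 0 to 4113 and from 0 to 7782; each was 0 without either replicate of dox+TCP. With the replicate number as a block, 5146 and 4874 genes were called in dox+TCP and dox cells; same-numbered arrays deviated together at r = 0.472, but 2 pairs do not establish a pairing. The slide leaves only the comparison within slide 1 as a block.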

Other observations

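Some pluripotency genes, tested here only as a check of the cell line, were chosen after their values were seen because they had the same order of groups as Mme. Fbxo15 had log2 ratios of -0.62 and -0.78 in dox+TCP cells, against -1.75 and -2.21 in dox cells. Klf2, a pluripotency factor, had 0.84 and 1.28 in dox+TCP cells, against 0.14 and -0.13 in dox cells. Pou5f1, Zfp42 and Klf4 differed by 0.21, 0.04 and -0.01 between the groups. Sall4 had the reverse order, with -0.97 and -1.19 in dox+TCP cells, against -0.71 and -0.51 in dox cells. Of the 19 pluripotency genes tested, 8 had both dox+TCP ratios above both dox ratios and 1 had both below. Over all 21411 genes those counts were 4319 and 2747. The median difference of the list was 0.21, beside 0.04 for all genes. The difference between dox+TCP and dox cells passed the adjusted test for none of these genes.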
